A study of Mus musculus with 12 samples.

Results

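The genes described here are 9 members of the S100 family of calcium-binding proteins, *S100a1*, *S100a3*, *S100a4*, *S100a6*, *S100a10*, *S100a11*, *S100a13*, *S100a16* and *S100b*. They were found by symbol in a table of 55359 gene identifiers from ISOS-1 cells, a mouse angiosarcoma line (a tumour of vessel-lining cells) labelled as endothelial and wild type. Each of the 9 had 1 row, and 7 reached at least 1 TPM (a transcript abundance divided by gene length and scaled to a fixed total per library) in at least 3 libraries, the level needed for a test. *S100a16* and *S100b* did not, and are given by their levels only. The 12 libraries fell into 4 groups of 3. One group received the solvent DMSO. SAHA (vorinostat, an inhibitor of histone deacetylases) was given at 1 µM for 24 h, VPA (valproic acid, another histone deacetylase inhibitor) at 2 mM for 36 h, and JQ1 (an inhibitor of the BET bromodomain proteins, which read acetylated histones) at 1 µM for 36 h. The sources used here do not give the duration of the DMSO treatment, so solvent and drug groups may also differ in time in culture. The labels speak of treatment in triplicate without saying whether the 3 libraries came from separate cultures, so p-values measure the spread between these libraries, which may be technical.

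S100 proteins are small proteins with paired EF hands, the helix-loop-helix folds that hold a calcium ion. Most form dimers that open a binding face when calcium rises and then grip a target such as an annexin or a non-muscle myosin. They act as calcium sensors inside cells, in the shaping of the cytoskeleton and membranes, and several are released from cells. Most S100 genes of the mouse lie together on chromosome 3, where 8 of these 9 are found, while *S100b* lies on chromosome 10.

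With all 3 drugs the family's dominant pair parted. In DMSO *S100a4* and *S100a6* stood at nearly the same TPM, a match that depends on the correction for gene length. With each drug *S100a6* rose and *S100a4* fell. *S100a11* rose with every drug and stood highest with SAHA, *S100a13* rose 1.99-fold with SAHA, and *S100a10* was higher with SAHA than with DMSO or JQ1. All 3 comparisons with DMSO share the same 3 solvent libraries, so an unusual solvent library would move them together. In cultures measured in bulk, a change in the share of cells that express a gene and a change in RNA per cell cannot be told apart.

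The sequence before the start of transcription is shown for the 3 most abundant members, since *S100a4* moved against the other two, and for the stretch shared by *S100a1* and *S100a13*, whose starts face away from each other. Sequences are from RefSeq on build GRCm38.p6, printed 5′ to 3′ on the + strand. The first 3 run from 250 bases before the start to the base before it, at chr3:90603520-90603769 for *S100a4*, chr3:90612644-90612893 for *S100a6* and chr3:93520246-93520495 for *S100a11*. The last fills chr3:90514331-90514434, the 104 bases between the *S100a1* start on the − strand and the *S100a13* start on the + strand. Capitals mark the motifs searched on both strands, which were TATAAA of core promoters, GGGCGG (GC box), CACGTG (E-box) and TGANTCA (AP-1 site).
S100a4: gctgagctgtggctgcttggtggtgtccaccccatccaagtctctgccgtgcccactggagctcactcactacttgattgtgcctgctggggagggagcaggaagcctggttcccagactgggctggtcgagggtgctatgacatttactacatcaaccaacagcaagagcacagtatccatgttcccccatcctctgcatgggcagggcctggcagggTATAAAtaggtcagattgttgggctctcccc
S100a6: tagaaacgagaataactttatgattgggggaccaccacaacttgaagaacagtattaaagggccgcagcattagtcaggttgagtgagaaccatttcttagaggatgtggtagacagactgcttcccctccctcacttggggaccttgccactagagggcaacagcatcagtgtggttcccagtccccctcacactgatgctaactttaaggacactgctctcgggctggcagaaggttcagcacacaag
S100a11: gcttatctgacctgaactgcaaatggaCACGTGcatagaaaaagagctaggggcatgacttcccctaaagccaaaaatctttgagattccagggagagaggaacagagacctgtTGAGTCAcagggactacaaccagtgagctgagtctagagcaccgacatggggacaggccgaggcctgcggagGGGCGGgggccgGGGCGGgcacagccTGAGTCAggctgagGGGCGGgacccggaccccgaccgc
between S100a1 and S100a13: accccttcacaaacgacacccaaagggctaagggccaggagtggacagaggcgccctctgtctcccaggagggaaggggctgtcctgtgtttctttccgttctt

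The *S100a4* stretch held TATAAA with its first base 31 bases before the start. The *S100a11* stretch held 2 copies of TGAGTCA, beginning 136 and 38 bases before the start, along with 1 CACGTG and 3 GGGCGG. None of the 4 motifs occurred in the *S100a6* stretch or between *S100a1* and *S100a13*; the *S100a6* window held a CACGTG beginning at base 15 after the start, beyond what is printed. Over all 32851 RefSeq promoter windows, which run from 250 bases before to 50 after a start, TATAAA was found in 13.6%, GGGCGG in 35.7%, CACGTG in 7.15% and TGANTCA in 7.81%. These matches describe letters and say nothing about which factors bind. The stretch between *S100a1* and *S100a13*, which is shorter than a window, was 58.7% G or C. The full windows of *S100a1* and *S100a13* were 61% and 59.3% G or C, against a median of 52.7% over all windows. Windows were given for 8 of the 9 members, with none for *S100a10*.

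The libraries were 3′-end libraries, and their values are TPM, which sum to the same total in each library, so sequencing depth is unknown and the counting error of a single value cannot be given. Between 13735 and 14799 genes were above 0 per library. Transcripts of the mitochondrial genome took 11.1% ± 0.0889 of TPM in DMSO, 11.3% ± 0.340 with SAHA, 12.2% ± 0.244 with VPA and 14.6% ± 0.526 with JQ1 (mean ± SD, n = 3), and their part in the JQ1 results was not tested beyond the rescaling named with the alternatives. Beside the endothelial label, 5 of 15 blood endothelial markers (*Cdh5*, *Erg*, *Cldn5*, *Vwf* and *Robo4*) were listed at 0 in all 12 libraries, and *Pecam1* did not pass 1.01 TPM. Only 4 of the 15 reached 1 TPM in any library: *Pecam1*, *Cd34*, *Egfl7* and *Flt1*. *Egfl7* and *Flt1* did so in all 12, with means of 9.79 and 2.48 TPM. *Cd34* stood at 103 ± 8.41 TPM in DMSO, 194 ± 9.85 with SAHA, 139 ± 18.2 with VPA and 52.5 ± 0.552 with JQ1.

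*S100a4* encodes a protein also called metastasin or fibroblast-specific protein, which binds non-muscle myosin IIA. Its TPM was 6631.79, 6740.45 and 6786.14 in the 3 DMSO libraries and 5778.15, 5487.75 and 5422.35 with SAHA. It was 4819.81, 4702.23 and 5101.01 with VPA, and 5210.42, 5472.49 and 5256.98 with JQ1. Every drug-treated library lay below every DMSO library, and the VPA libraries were the lowest. The fall was 17.2% with SAHA (log2 change −0.27, SE 0.0356, adjusted p = 0.00146), 27.5% with VPA (−0.46, adjusted p = 7.53e-05) and 20.9% with JQ1 (−0.34, adjusted p = 2.58e-05), on the log2(TPM + 1) scale in limma, adjusted over all 12836 tested genes. Without the intensity trend in limma's estimate of spread, the SAHA result was no longer called (adjusted p = 0.142). Separation from every DMSO library, here and for the genes below, was common among all tested genes. No overlap with DMSO was found in 24.3% of them with SAHA, 23.5% with VPA and 45.7% with JQ1. Between drugs, no overlap was found in 16.6% for SAHA and VPA, 44.6% for SAHA and JQ1, and 45.3% for VPA and JQ1.

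*S100a6*, or calcyclin, binds CacyBP and several annexins. Its TPM was 6442.93, 6462.78 and 6747.7 in DMSO and 8886.46, 8891.05 and 8703.76 with SAHA. It was 8169.34, 8355.28 and 8782.39 with VPA, and 8525.49, 8683.19 and 8409.19 with JQ1. All 9 treated libraries lay above all 3 DMSO libraries. The rise was 1.35-fold with SAHA (log2 change 0.43, SE 0.0299, adjusted p = 2.46e-05) and 1.29-fold with VPA (0.36, adjusted p = 0.000109; 0.0622 without the intensity trend). With JQ1 it was 1.30-fold (0.38, adjusted p = 2.73e-06), a direction that did not hold under quantile normalization (−0.03, adjusted p = 0.722). That method gives genes of equal rank the same value, and over all identifiers *S100a6* ranked 14 to 15 in the DMSO libraries and 15 to 16 in the JQ1 libraries. Whether this accounts for the lost rise was not tested.

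The ratio of *S100a6* to *S100a4* within a library is not altered by scaling all genes of a library by 1 factor, though quantile normalization can alter it. It was 0.972, 0.959 and 0.994 in DMSO, 1.54, 1.62 and 1.61 with SAHA, 1.69, 1.78 and 1.72 with VPA, and 1.636, 1.587 and 1.5996 with JQ1. The treated and solvent ratios did not overlap, which follows from the separation of both genes and adds no further support. Among protein-coding genes of the nucleus, ranked by TPM, *S100a4* was at place 2 to 3 in DMSO, place 8 with SAHA and place 13 to 14 with VPA and with JQ1. *S100a6* was at place 4 to 5 in DMSO and with JQ1, and at place 2 with SAHA and with VPA. Tags from 3′ ends do not grow in number with the length of a gene while TPM corrects for it, so these ranks favour short genes. The ratio near 1 in DMSO likewise depends on that correction. The GENCODE annotation gives 584 exon bases for *S100a4* and 1367 for *S100a6*. The 9 members together held 1.49% ± 0.0173 of all TPM in DMSO, 1.72% ± 0.0368 with SAHA, 1.55% ± 0.0474 with VPA and 1.597% ± 0.0263 with JQ1.

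**Figure D1:**
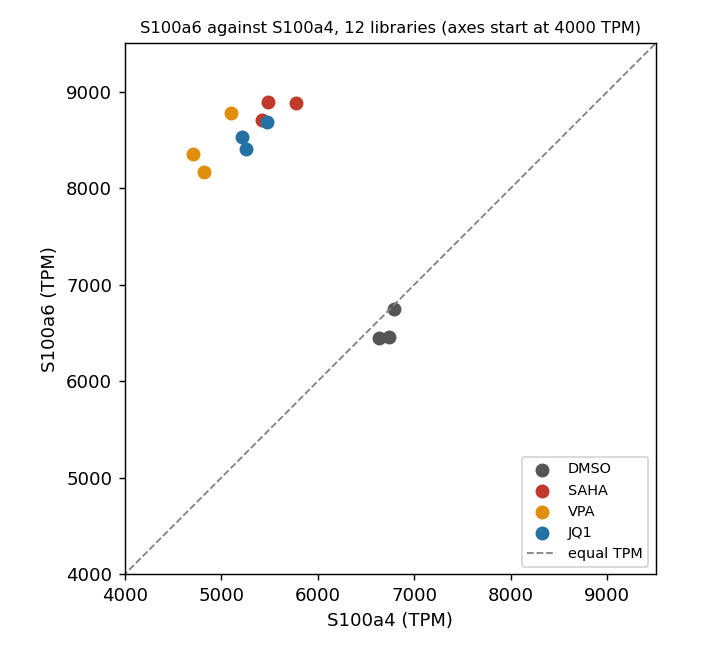
TPM of *S100a4* (horizontal axis) and *S100a6* (vertical axis) in the 12 libraries, 1 point each, with both axes cut below the data rather than starting at 0, and a dashed line at equal TPM. The 3 DMSO points lie just under the line, at ratios of 0.959 to 0.994, and the 9 treated points lie above it, at ratios of 1.54 to 1.78. Where the points lie against this line depends on the length correction of TPM.

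Gene overlap could touch the *S100a4* values. In the GENCODE annotation, which is on another build than the submitters' genome, 302 of its 584 exon bases are shared with *Gm42674*, a gene on the same strand, which was listed at 0 in all 12 libraries. A near copy of *S100a11*, the pseudogene *S100a11-ps*, was also listed at 0 in all 12. How reads common to such pairs were assigned was not tested.

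*S100a11* encodes a partner of annexin A1. Its TPM was 1086.85, 1105.13 and 1072.01 in DMSO and 1966.99, 2004.9 and 1836.87 with SAHA. It was 1469.11, 1540.12 and 1459.82 with VPA, and 1522.72, 1488.71 and 1482.75 with JQ1. The SAHA libraries were the highest, the VPA and JQ1 libraries lay together between them and DMSO, and no treated library overlapped the solvent. The rise was 1.78-fold with SAHA (log2 change 0.83, SE 0.0391, adjusted p = 1.68e-06), 1.37-fold with VPA (0.45, adjusted p = 0.000137) and 1.38-fold with JQ1 (0.46, adjusted p = 5.08e-06). Among protein-coding genes of the nucleus it moved from place 109 to 117 in DMSO to place 54 to 58 with SAHA.

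*S100a10* encodes the family member that does not bind calcium and pairs with annexin A2. Its TPM was 351.78, 325.89 and 266.86 in DMSO, 488.96, 517.88 and 460.33 with SAHA, 329.52, 341.17 and 373.07 with VPA, and 292.8, 308.17 and 282.08 with JQ1. The SAHA libraries stood above all others, while the VPA and JQ1 libraries overlapped DMSO. The rise with SAHA was 1.55-fold (log2 change 0.64, SE 0.0945, adjusted p = 0.00291). The difference from DMSO was 0.15 with VPA (95% interval −0.0567 to 0.359, adjusted p = 0.444) and −0.09 with JQ1 (−0.296 to 0.120, adjusted p = 0.518); the latter sign turned under median-of-ratios scaling (0.03) and quantile normalization (0.18).

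**Figure D2:**
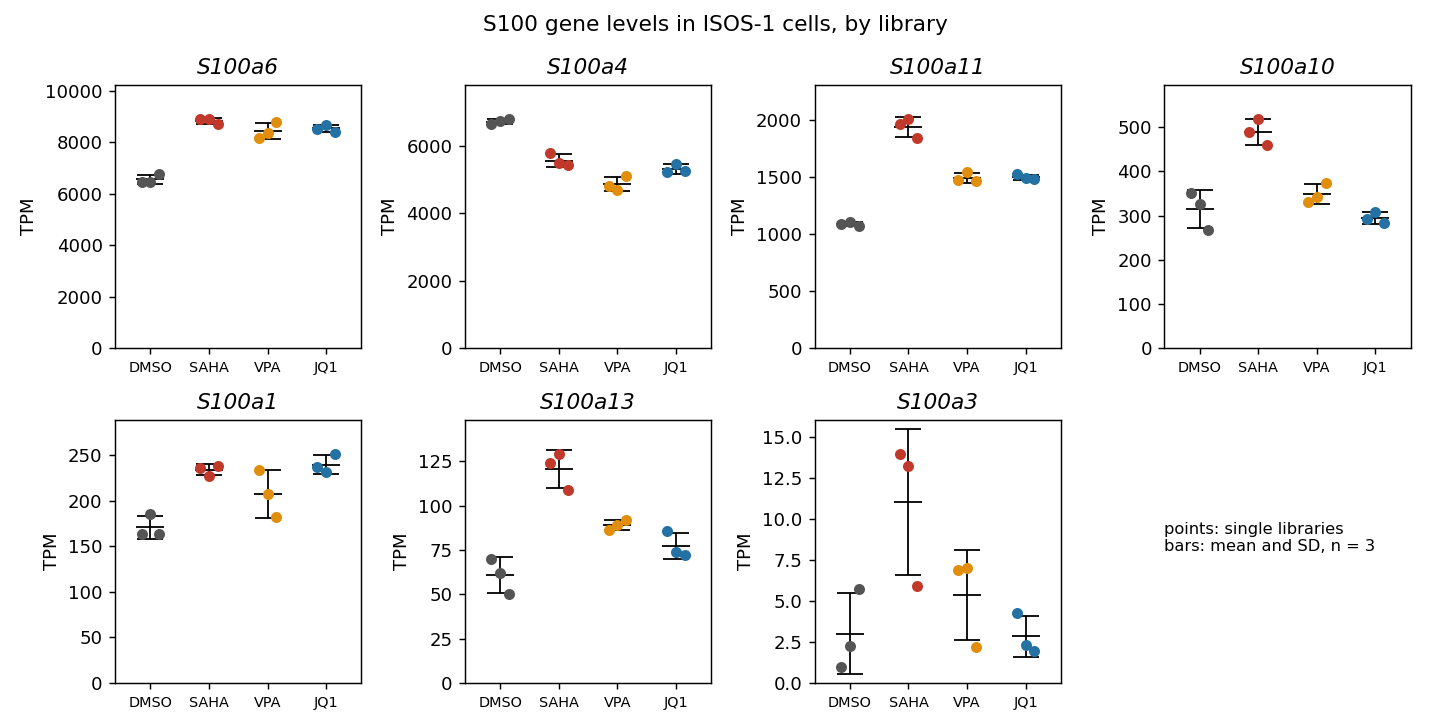
TPM of the 7 tested S100 genes in each library (points), with the mean and SD of each group (bars, n = 3); every panel has its own vertical axis starting at 0. *S100a4* is lower in all treated groups, *S100a6* and *S100a11* are higher in all of them, and *S100a10* stands apart with SAHA, at 460.33 to 517.88 TPM.

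*S100a13*, whose protein takes part in the release of the growth factor FGF1, had 70.15, 62.09 and 49.89 TPM in DMSO and 124.28, 129.15 and 108.77 with SAHA. It had 86.44, 88.89 and 91.9 TPM with VPA, and 85.6, 73.68 and 72.09 with JQ1. No treated library overlapped DMSO, and the SAHA libraries were the highest. The rise with SAHA was 1.99-fold (log2 change 0.99, SE 0.123, adjusted p = 0.00111). With VPA it was 1.47-fold (0.56, adjusted p = 0.0295), a call that ended without DMSO library 2 (adjusted p = 0.0686) or 3 (0.0821) and without VPA library 1 (0.0729), 2 (0.0803) or 3 (0.0914). With JQ1 it was 1.27-fold (0.35, adjusted p = 0.0473), and this call ended without any 1 of 10 of the 12 libraries, with an adjusted p of up to 0.171. DMSO library 1 and SAHA library 3 were the exceptions. Across other settings the VPA call was lost in 5 (adjusted p of 0.0529 with median-of-ratios scaling to 0.0982 with these groups alone) and the JQ1 call in 4 (0.0596 with length multiplied back in to 0.118 with these groups alone). *Fgf1* was listed at 0 in all 12 libraries.

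*S100a1*, best known from heart and skeletal muscle, had 163.32, 185.19 and 163.38 TPM in DMSO, 236.39, 227.05 and 238.32 with SAHA, 233.95, 207.03 and 181.73 with VPA, and 236.86, 231.06 and 251.34 with JQ1. The SAHA and JQ1 libraries stood above DMSO, and 1 VPA library fell inside the DMSO range. The rise with JQ1 was 1.41-fold (log2 change 0.49, SE 0.0889, adjusted p = 0.00138). With SAHA it was 1.37-fold (0.46, adjusted p = 0.0144), a call that ended without DMSO library 1 (adjusted p = 0.0589) or 3 (0.0572), without SAHA library 3 (0.0507) and without the intensity trend (0.0726). With VPA the difference was 0.28 (adjusted p = 0.117), and it was called only when VPA library 3 was left out (0.0456). For *S100a13*, which starts 104 bases away, the level was 121 ± 10.6 TPM with SAHA and 77.1 ± 7.38 with JQ1, whereas for *S100a1* it was 234 ± 6.03 and 240 ± 10.4. The difference between the genes was not tested.

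The last 3 members were low. *S100a3*, known from the cuticle of hair, had 0.98, 2.27 and 5.75 TPM in DMSO, 13.96, 13.2 and 5.88 with SAHA, 6.86, 7 and 2.2 with VPA, and 4.26, 2.31 and 1.96 with JQ1. Its libraries varied widely within each group, and no comparison with DMSO was called (adjusted p = 0.0863 with SAHA, 0.495 with VPA and 0.931 with JQ1); SAHA was called when DMSO library 3 was left out (0.0486). *S100a16* reached at most 1.34 TPM, in SAHA library 2, and was listed at 0 in 6 of the 12 libraries. *S100b*, a gene best known from glia, reached at most 0.53 TPM and was above 0 in 3 libraries. The glial, Schwann and melanocyte markers summed to no more than 4.59 TPM in any library, with *Sox10*, *Gfap* and *Mlana* at 0 in all 12.

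Counted together, 5 of the 7 tested members rose and 1 fell with SAHA, where 5.19% of all tested genes were called (3.09% higher and 2.1% lower). With VPA 3 rose and 1 fell, against 4.27% of all genes called (2.95% higher and 1.32% lower). With JQ1 4 rose and 1 fell, against 33.9% of all genes called, of which fewer were higher (12.9%) than lower (21%). The median log2 change of the members was 0.64 with SAHA, 0.36 with VPA and 0.35 with JQ1, and the median of all tested genes was 0.01, 0.06 and −0.07. The VPA count fell from 4 to 2 without the intensity trend. Most tested members were abundant, and the share over all genes was not matched for abundance. The SE of the log2 change was 0.0299 for *S100a6* and 0.507 for the low *S100a3*, so an abundant gene could be called at a smaller change.

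**Figure D3:**
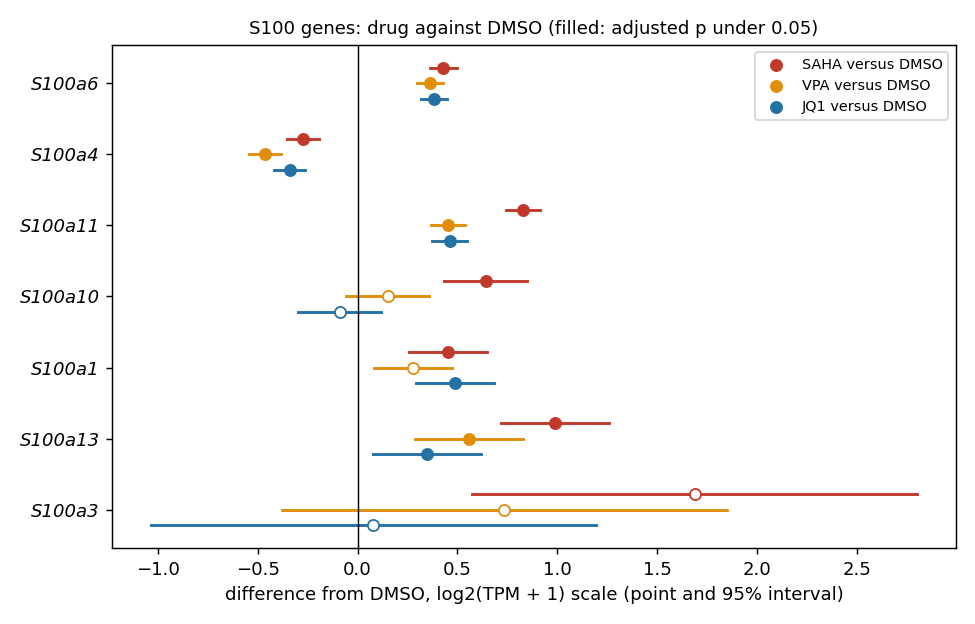
Difference of each drug from DMSO for the 7 tested S100 genes, as the log2 change of TPM + 1 (points) with its 95% interval from limma (lines), filled where the adjusted p was under 0.05. *S100a4* lies left of 0 with all drugs (−0.27, −0.46 and −0.34), and *S100a6* and *S100a11* lie right of it.

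Between the drugs, which were given at different doses and for different times, SAHA and VPA differed in 2 of the 7 members, where 0.452% of all genes were called (0.265% higher with SAHA). *S100a11* was higher with SAHA by 0.38 on the log2 scale (SE 0.0391, adjusted p = 0.00186), a call that was lost with these groups alone (0.0817) and without the intensity trend (0.195). *S100a4* was higher with SAHA by 0.19 (adjusted p = 0.0498), a call that was lost when any 1 library other than VPA library 3 was left out (adjusted p up to 0.150). *S100a10* was higher with SAHA by 0.49 without being called (95% interval 0.282 to 0.698, adjusted p = 0.0551). SAHA and JQ1 differed in 4 members, where 33.3% of all genes were called (21.3% higher with SAHA). *S100a10* was higher with SAHA by 0.73 (adjusted p = 0.000130), *S100a13* by 0.64 (0.00198) and *S100a11* by 0.37 (2.92e-05). *S100a3* was higher by 1.61 (adjusted p = 0.0303), a call that ended without SAHA library 1 (0.0977) or 2 (0.0932), or JQ1 library 2 (0.0819) or 3 (0.0934). VPA and JQ1 differed in 1 member, where 33.2% of all genes were called (22.9% higher and 10.3% lower with VPA): *S100a4* was lower with VPA by 0.12 (adjusted p = 0.0187), a call lost without VPA library 1 (0.0577) or 2 (0.0760) or JQ1 library 2 (0.0754) and turned in sign under quantile normalization (0.04). *S100a6* was not called between any pair of drugs, with a 95% interval for SAHA minus VPA of 0.000310 to 0.132, but calls against JQ1 appeared with scaling. VPA minus JQ1 was −0.21 with median-of-ratios scaling (adjusted p = 0.000420) and 0.35 with quantile normalization (0.000685), and SAHA minus JQ1 was 0.44 with quantile normalization (0.000137). *S100a11* differed between VPA and JQ1 by −0.01 (95% interval −0.0944 to 0.0776), and by −0.20 with median-of-ratios scaling, where it was called (adjusted p = 0.00196).

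Of the 9 other S100 genes listed, 6 were above 0 in some library and 2 were tested. *S100a5* had 8.98, 4.16 and 4.41 TPM in DMSO, 13.57, 8.07 and 4.31 with SAHA, 6.29, 1.61 and 4.04 with VPA, and 0, 2.12 and 3.59 with JQ1. *S100a7a*, of the psoriasin group, had 2.59, 0.6 and 3.04 TPM in DMSO, 4.78, 4.65 and 7.45 with SAHA, 3.02, 1.85 and 4.07 with VPA, and 0.45, 1.22 and 0.52 with JQ1. Neither was called by limma against DMSO, where the unadjusted p was under 0.05 for *S100a5* with JQ1 (0.0336) and *S100a7a* with SAHA (0.00892). *S100a7a* was higher with SAHA than with JQ1 by 1.94 on the log2 scale (adjusted p = 0.00212). Against JQ1, *S100a5* was also higher with SAHA by 1.87 (adjusted p = 0.0301) and *S100a7a* with VPA by 1.19 (0.0304). The *S100a5* call ended when any 1 of 3 libraries was left out (adjusted p up to 0.109), and this *S100a7a* call with any 1 of 4 (0.106). *S100a8*, which with *S100a9* forms calprotectin in myeloid cells, was at 3.31 TPM in VPA library 3 and at 0 in the other 11, and *S100a9* was at 0 in all 12. The leukocyte markers summed to 0.52 to 4.32 TPM, with *Adgre1* and *Itgam* among those at 0 throughout. *S100a2* reached at most 3.03 TPM, *S100g* 1.29 and *S100a14* 0.83.

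Annexins and other known partners of S100 proteins moved in both directions. Of 29 tested annexins and other partners, 4 were called with SAHA, all higher. With VPA 3 rose and 2 fell, and with JQ1 6 rose and 10 fell. Of all tested genes, 5.19%, 4.27% and 33.9% were called with SAHA, VPA and JQ1, and with JQ1 more were lower (21%) than higher (12.9%). Their median log2 changes were 0.10, 0.01 and −0.23. *Anxa2*, the partner of *S100a10*, had 440.81, 445.02 and 446.77 TPM in DMSO, 486.93, 471.77 and 492.14 with SAHA, 366.63, 404.92 and 344 with VPA, and 483.65, 489.78 and 474.87 with JQ1. All VPA libraries lay below DMSO and all SAHA and JQ1 libraries above it, yet only VPA was called (−0.26, adjusted p = 0.0285), a call that ended without any 1 DMSO library (up to 0.0850) and without VPA library 1 (0.0891) or 3 (0.0813). *Anxa1*, the partner of *S100a11*, had 136 ± 17.8 TPM in DMSO, 185 ± 9.44 with SAHA (adjusted p = 0.0809), 189 ± 39.9 with VPA (0.0826) and 124 ± 1.57 with JQ1 (0.498). *Anxa6*, another annexin, rose from 8.17 ± 0.997 TPM to 22.1 ± 4.37 with SAHA (1.32, adjusted p = 0.00231) and to 21.95 ± 2.85 with VPA (1.32, adjusted p = 0.00357). With JQ1 it fell to 5.07 ± 0.932 (−0.60, adjusted p = 0.0283), a call that ended without DMSO library 2 (0.0727) or 3 (0.0901) or JQ1 library 2 (0.101).

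With JQ1, 3 partners that each bind a named member changed. *Ahnak*, a giant scaffold protein bound by the pair of *S100a10* and annexin A2, had 162.9 ± 18.2 TPM in DMSO and 409 ± 10.9 with JQ1 (log2 change 1.33, adjusted p = 1.04e-05). *Myh9*, the heavy chain of non-muscle myosin IIA and target of *S100a4*, had 29.3 ± 3.30 TPM in DMSO and 58.5 ± 3.55 with JQ1 (0.98, adjusted p = 2.42e-05). *Cacybp*, whose protein binds calcyclin, had 89.5 ± 2.899 TPM in DMSO and 42.3 ± 2.80 with JQ1 (−1.06, adjusted p = 1.18e-06). Neither SAHA nor VPA was called for these 3 genes, and *Ahnak* with SAHA lay nearest the threshold (226 ± 27.1 TPM, adjusted p = 0.0531). *Plaur*, the urokinase receptor, fell from 15.02 ± 4.77 to 5.46 ± 1.48 TPM with JQ1 (−1.30, adjusted p = 0.00113). *Trp53*, whose protein several S100 proteins bind, fell from 22.7 ± 9.33 to 7.04 ± 1.13 TPM (−1.49, adjusted p = 0.00383). *Plat*, tissue plasminogen activator, was at 1.5 ± 1.27 TPM in DMSO and rose to 7.22 ± 1.66 with JQ1 (1.84, adjusted p = 0.00219). Its calls with SAHA (adjusted p = 0.0376) and VPA (0.0378) ended when any 1 of 8 and of 9 of the 12 libraries was left out, with an adjusted p of up to 0.120 and 0.118. *Ager*, the receptor for released S100 proteins, reached at most 2.27 TPM and was not called.

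**Figure D4:**
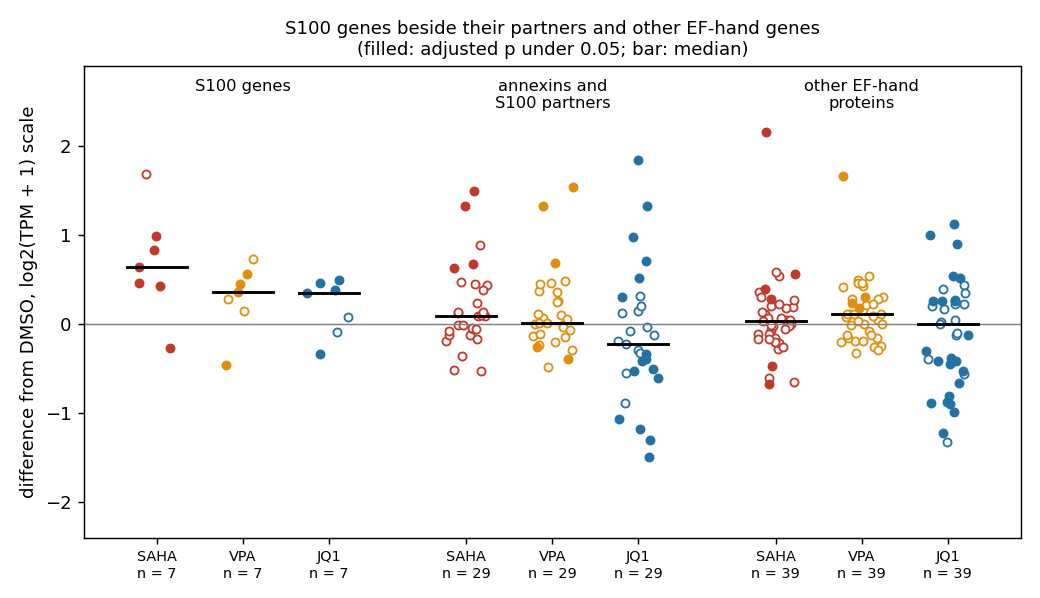
Log2 change of TPM + 1 with each drug against DMSO for the 7 tested S100 genes, 29 annexins and S100 partners, and 39 other EF-hand genes; 1 point per gene, filled where the adjusted p was under 0.05, with a bar at the median. The S100 medians are 0.64, 0.36 and 0.35, and the medians of the other lists lie between −0.23 and 0.11.

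Among 39 other tested EF-hand genes, 4 rose and 2 fell with SAHA, 4 rose with VPA, and 8 rose and 14 fell with JQ1, with medians of 0.03, 0.11 and 0.01. Over all tested genes 3.09% were higher and 2.1% lower with SAHA, 2.95% and 1.32% with VPA, and 12.9% and 21% with JQ1. *Cetn4*, a centrin, had 3.13 ± 0.841 TPM in DMSO and rose with each drug, to 17.7 ± 5.71 with SAHA (2.16, adjusted p = 0.00111), 12.01 ± 1.99 with VPA (1.66, adjusted p = 0.00656) and 8.12 ± 2.55 with JQ1 (1.12, adjusted p = 0.00714). *Cetn3*, another centrin, fell from 446 ± 20.3 to 225 ± 7.48 TPM with JQ1 (−0.98, adjusted p = 2.12e-06). *Fkbp10*, an EF-hand chaperone of collagen folding, fell from 36.7 ± 2.94 to 15.1 ± 0.988 TPM with JQ1 (−1.23, adjusted p = 5.09e-06). Of the 7 genes of the epidermal differentiation complex that fuse an S100 domain to repeats, such as filaggrin, 6 were at 0 in all 12 libraries and none was tested.

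*S100a4* is also used as a fibroblast marker. The fibroblast markers, which leave *S100a4* out, summed to 757.46 to 801.15 TPM in DMSO, 1084.47 to 1227.31 with SAHA, 973.34 to 1042.12 with VPA and 813.49 to 843.76 with JQ1, with 1 of 8 (*Fap*) at 0 throughout. *Thy1*, of this list, was at 154 ± 7.20 TPM in DMSO, 567 ± 81.5 with SAHA, 494 ± 45.8 with VPA and 152 ± 10.3 with JQ1. The listed genes did not move together: *Col1a2* had 469.6 ± 19.6 TPM in DMSO, 427 ± 10.1 with SAHA (adjusted p = 0.122), 373.5 ± 10.6 with VPA (log2 change −0.33, adjusted p = 0.00318) and 540.7 ± 4.003 with JQ1 (0.20, adjusted p = 0.00512). Without the intensity trend neither *Col1a2* call held (0.0900 and 0.109). *Col1a1* had 147 ± 5.16, 143 ± 6.32, 128 ± 9.07 and 135 ± 3.596 TPM, and *Pdgfra* had 2.48 ± 1.52, 4.58 ± 0.794, 5.56 ± 1.18 and 0.09 ± 0.0854. Epithelial and keratinocyte markers, chiefly *Krt19*, summed to 11.16 to 12.94 TPM in DMSO, 21.93 to 26.38 with SAHA, 25.27 to 35.84 with VPA and 30.36 to 40.32 with JQ1, with *Epcam* and *Krt5* at 0 in all 12. Pericyte and smooth muscle markers, chiefly *Acta2* and *Tagln*, summed to 68.71 to 81.59 TPM in DMSO and 42.92 to 50.62 with SAHA. The sum was 58.13 to 65.76 TPM with VPA and 29.4 to 33.9 with JQ1, and *Rgs5* was at 0 in all 12 libraries. *Pdpn*, of the 4 lymphatic endothelial markers, had 73.3 ± 4.24, 115 ± 7.61, 106 ± 0.953 and 46.9 ± 1.89 TPM. The rest of that list was nearly absent: *Prox1* reached at most 0.24 TPM, *Lyve1* at most 0.2, and *Flt4* was at 0 in all 12 libraries. The part of these markers in the S100 results was not tested.

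The genes beside the S100 genes in the RefSeq gene order, 31 in all, were described next, of which 10 were tested. None was called by limma with SAHA or VPA, where 2 and 0 had an unadjusted p under 0.05, and their median log2 changes were 0.05 and 0.05. With JQ1 2 rose and 2 fell, with a median of −0.23, where 33.9% of all tested genes were called, so the count is near the background. *Snapin*, whose protein binds the vesicle fusion machinery, rose from 12.1 ± 3.08 to 32.0 ± 0.547 TPM (1.36, adjusted p = 0.00121). *Prmt2*, an arginine methyltransferase beside *S100b*, rose from 13.1 ± 1.51 to 26.8 ± 3.24 TPM (0.97, adjusted p = 0.000652). *Mcm3ap* fell by 1.24 on the log2 scale (adjusted p = 0.0117), and *Ilf2* fell by 0.51 (adjusted p = 0.0246), a call that ended without DMSO library 2 (0.0819) or 3 (0.0658) or JQ1 library 1 (0.0600) or 3 (0.0823).

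Across the 12 libraries, the members most alike were *S100a11* and *S100a13* (Pearson r = 0.93) and *S100a6* and *S100a11* (0.90), and *S100a4* ran against *S100a6* (−0.80). These coefficients describe log2(TPM + 1) over libraries of 4 groups, so they carry the differences between groups and come with no test. The genes whose pattern was most like that of *S100a13* were *S100a11* (0.928), *Uqcrh* (0.918) and *Etfb* (0.913), and those most like *S100a3* were *Capza2* (0.860), *Sh3pxd2a* (0.842) and *Gorab* (0.839). For 3 members taken up after their values were seen, the nearest genes were *Ybx1* (0.906) for *S100a4*, *Calr* (0.952) for *S100a6* and *Ctsl* (0.983) for *S100a11*.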

How the data were processed

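The 12 libraries were made with a QuantSeq 3′ FWD kit, per the labels' protocols. The values are TPM deposited by the authors in a matrix of 55359 gene identifiers. Per the submitters' processing notes, the genome was mm39 and the tools included RSEM, STAR, edgeR and bcl2fastq 2.17, with no role given for any of them. TPM keeps no depth, so no counting interval is given. The deposited sheets that pair each drug with DMSO held the same values, and the identifiers of the SAHA sheet stand on another line than their values, so the matrix alone was used.

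The 12836 genes that reached 1 TPM in 3 or more libraries were taken as log2(TPM + 1). All 12 libraries were fitted with 4 group means and 8 residual degrees of freedom in limma 3.58.1 (R 4.3.3, eBayes with an intensity trend). Tests were two-sided, and p-values were adjusted by the method of Benjamini and Hochberg over all tested genes. An adjusted p under 0.05 is written as a rise, fall or call. Fold changes are ratios of mean TPM, and log2 changes, which understate low genes, come from the fit. The procedure was also run on simulated data with 200 changed genes and independent noise, and the outcome is not reported here. That setting held no change over many genes like that with JQ1, so it does not check the JQ1 comparisons. Figures used Python 3.11.15 and matplotlib 3.10.9.

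The members and all gene lists were chosen with earlier results of these data known. Named were all 9 members, other S100 genes above 0, 7 partners (*Anxa1*, *Anxa2*, *Ahnak*, *Cacybp*, *Myh9*, *Fgf1* and *Ager*) in every case, and of each other list up to 4 further called genes with the largest change and at least 5 TPM in either group. Nearest patterns were sought for the 2 members with the widest range of group means, and called genome neighbours were named. Some genes that this rule names are not reported here. Annotation came from GENCODE and RefSeq tables on GRCm38, so no mm39 coordinates are given. The alternatives tried were other pseudocounts, filters, scalings and estimates of spread, a replicate block, the compared groups alone, and leaving out each library.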

Additional observations from a re-analysis of the deposited data

How the results depend on the processing

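Over 24 alternatives, the 22 called differences of members gave 465 results with the same direction and call. They also gave 61 of the same direction that were no longer called and 2 of opposite sign, which had lost the call too. The 20 uncalled ones gave 447 with the same direction and call, 18 newly called in the same direction and 15 of opposite sign. Among those 15, *S100a6* for VPA against JQ1 with quantile normalization was also newly called. The number of members called between SAHA and VPA (2) became 1 with a pseudocount of 0.5 or 0.1, without a filter, with length multiplied back in and with the replicate block, and 0 with these groups alone or without the intensity trend. Between VPA and JQ1 (1) it became 4 with median-of-ratios scaling, 2 with quantile normalization or without mitochondrial genes and Rn18s, and 0 without a filter or without the trend. Between SAHA and JQ1 (4) it became 7 with quantile normalization, and for VPA against DMSO (4) it became 2 without the trend. Leaving out 1 library gave 5 to 6 members for SAHA against DMSO, 3 to 4 for VPA, 4 to 5 for JQ1, 1 to 2 for SAHA and VPA, 3 to 4 for SAHA and JQ1, and 0 to 2 for VPA and JQ1. The causes were not tested.

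Signs turned as follows on the log2 scale. With median-of-ratios scaling, *S100a10* was at 0.0267 for JQ1 against DMSO, and *S100a4* and *S100a6* at −0.0636 and −0.0817 for SAHA against JQ1. With quantile normalization, *S100a6* was at −0.0306 and *S100a10* at 0.183 for JQ1 against DMSO, and *S100a4*, *S100a6*, *S100a10* and *S100a13* at 0.0416, 0.353, −0.0191 and −0.0507 for VPA against JQ1. With length multiplied back in, *S100a4* and *S100a6* were at −0.00153 and −0.0196 for SAHA against JQ1. Leaving out 1 library gave −0.336 to 0.55 for *S100a3* with JQ1 against DMSO, and −0.0475 to 0.00466 for *S100a6* and −0.0326 to 0.00599 for *S100a11* in VPA against JQ1. Scaling moved the median of all genes by −0.15 (median of ratios) and −0.17 (quantile) for VPA against JQ1 and by −0.11 (quantile) for SAHA against JQ1.

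Over all genes, the 666 calls for SAHA against DMSO became 369 with these groups alone, 402 without the trend and 365 to 637 without 1 library. The 548 for VPA became 243, 341 and 294 to 508. The 58 for SAHA and VPA became 19, 14 and 15 to 61, 95 with median-of-ratios scaling and 24 with the replicate block. With group means taken out, same-numbered libraries correlated at −0.04 to 0.08 over 18 pairs and differently numbered ones at −0.07 to 0.06 over 36. These ranges overlap, and with 3 libraries a group they cannot settle whether the numbers pair the samples. Depth is unknown, and with 3 libraries a group the low members (*S100a3*, *S100a5*) have wide intervals.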

Other observations

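Genes of store-operated calcium entry and of calcium handling in the endoplasmic reticulum and other compartments were also listed. Of 18 tested, 2 were called with SAHA and 4 with VPA, all higher, and with JQ1 5 rose and 2 fell, where 5.19%, 4.27% and 33.9% of all tested genes were called. Their median log2 changes were 0.23, 0.26 and 0.29, against 0.01, 0.06 and −0.07 over all tested genes. *Saraf*, a brake on store-operated calcium entry, had 25.33, 23.4 and 24.42 TPM in DMSO, 31.02, 30.37 and 32.05 with SAHA, 34.76, 42.86 and 34.21 with VPA, and 60.74, 61.07 and 59.88 with JQ1. The JQ1 libraries were the highest and the groups did not overlap. *Saraf* rose with JQ1 (log2 change 1.28, adjusted p = 2.95e-06) and with VPA (0.59, adjusted p = 0.00931; 0.0738 with these groups alone), and was not called with SAHA (0.34, adjusted p = 0.0816). *Stim2*, a calcium sensor of the endoplasmic reticulum, rose from 15.7 ± 3.70 to 34.9 ± 2.59 TPM with JQ1 (1.13, adjusted p = 0.00113). *Stim1* with VPA (0.92, adjusted p = 0.0352) and *Atp2c1*, a Golgi calcium pump, with JQ1 (0.77, adjusted p = 0.0382) were called, and each call ended when some single libraries were left out (adjusted p up to 0.115 and 0.138).

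*S100pbp*, whose protein binds S100P in humans, had 8.92, 9.11 and 5.9 TPM in DMSO and 12.69, 11.84 and 11.7 with SAHA. It had 13.65, 11.48 and 13.82 TPM with VPA and 10.88, 7.37 and 13.49 with JQ1; it was chosen after its values were seen and is given with no test.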
